A study of Mus musculus with 7 samples.

Results

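The 30 genes described here encode p53, its main inhibitor, several of its transcriptional targets and the core machinery of apoptosis: the BCL-2 family, death receptors, caspases and the factors that mitochondria release. They were chosen by symbol from a fixed list, and all 30 were found among the 51912 genes of the table. No measured value enters the rule, but the list was drawn up with earlier results of these data known. RNA came from pancreatic islets of db/db mice, a strain without a functional leptin receptor that develops obesity and diabetes. The animals carried an adeno-associated virus (AAV) for either GFP (AAV-GFP, 4 libraries) or adipsin (AAV-Adipsin, 3 libraries). Islets were collected 4 weeks later and cultured for 12 hours before extraction, per the labels. Every mouse was db/db and every mouse received a vector, so neither a lean nor an untreated reference is included. The sources used here give neither the age of the mice nor the promoter of the vector. The fits treat each library as an independent sample. The comparison asks how systemic overexpression of adipsin, a complement protease made mainly by fat cells, affects islet transcripts. Per the series' design text, both groups had similar glucose in serum at this time.

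Total counts ran from 29601707 to 43997400 per library, and the members had between 10 (Hrk) and 10261 (Ccng1) counts in a library, so counting error was small for all but Hrk and Fas. The counts of Cfd, which encodes adipsin, were 1, 0, 0 and 0 with AAV-GFP and 3965, 839 and 1481 with AAV-Adipsin. Insulin, glucagon and other endocrine markers were abundant throughout (189221 to 218659 summed CPM in AAV-GFP and 179038 to 223296 in AAV-Adipsin for 8 genes). The labels describe replicate 1 of each group with the name of its treatment, and the other 5 libraries with a db number. The 2 treatment-named libraries stand apart from the rest, with 1616 genes called between the styles and 1 between the treatments, and what the 2 styles of description stand for is not given. Results are therefore shown for treatment and for style, and for some members the treatment difference is also given within the styles. Levels are in CPM after TMM scaling, and means carry the SD over libraries (n = 4 for AAV-GFP and n = 3 for AAV-Adipsin, in that order).

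As background, p53 is a transcription factor that is held low by the ubiquitin ligase Mdm2 and stabilised by DNA damage and other stress, after which it activates genes for growth arrest, metabolism and death. In the intrinsic pathway of apoptosis, BH3-only proteins relieve the effectors Bax and Bak1 from pro-survival relatives such as Bcl2, Bcl2l1 and Mcl1, and the pores that follow release cytochrome c, Diablo and other factors. Apaf1 then activates Casp9, while death receptors reach the same executioner caspases through Casp8. Loss of beta cells by apoptosis is a recognised feature of diabetes in which beta cells fail to meet demand.

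p53 binds a consensus element built of 2 half-sites of 10 bases, each with a core of C and G around a pair of central bases. A search of RefSeq promoters (GRCm38.p6, 250 bases before to 50 after each start) covered 35 promoters of 26 members. It required the C and G of both cores, at least 18 of the 20 consensus bases and a spacer of at most 13 bases. The half-site is its own reverse complement, so both strands are covered. Such a match was present in 3 of the 26 member genes, against 4.71% of all 27025 genes with a promoter listed, and these 3 are shown because they place the element in members whose levels are described next. The cores are in capitals.
Cdkn1a: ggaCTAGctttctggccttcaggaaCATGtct
Ccng1: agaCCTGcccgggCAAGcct
Bax: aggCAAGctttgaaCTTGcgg

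The Cdkn1a match lies at chr17:29090906-29090937 on the plus strand. It begins 73 bases before a listed start, fits all 20 bases and has a spacer of 12. The Ccng1 match, at chr11:40755462-40755481 on the minus strand, begins 195 bases before the start and fits 19 bases without a spacer. The Bax match, at chr7:45467079-45467099 on the minus strand, begins 201 bases before the start and fits 18 bases with a spacer of 1. Among the other p53 targets of a second list, 4 of the 18 genes with a listed promoter held a match. A match is a description of letters, not a measured binding site. Elements outside the 300 bases searched would be missed, so members without a match, and those with one, may hold others elsewhere.

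None of the 30 members passed the test for a difference between AAV-Adipsin and AAV-GFP. All 30 passed the filter on low counts, and by edgeR's quasi-likelihood test with Benjamini-Hochberg adjustment over 16504 genes 0 were called, against 0.00606% of all genes (Cfd alone). At an unadjusted p under 0.05 there were also 0 members, against 1.16% of all genes, and neither DESeq2 nor limma-voom called a member. Among the alternative fits, Trp53inp1, Pmaip1 and Apaf1 were the members that reached an unadjusted p under 0.05 in at least 1, with no adjusted p below 0.64. The fitted log2 fold change was above 0 for 12 members and below 0 for 18, with a median of -0.03, where all genes had a median of -0.01 and 46.2% above 0. The 95% interval stayed within a 1.5-fold change in either direction for 23 of 30 members, against 62.1% of all genes. The 7 that this fit, without description style, did not bound this closely were Hrk, Fas, Bak1, Pmaip1, Bid, Bok and Bcl2. Hrk and Fas were the only members whose interval passed a 2-fold change in this fit. The SEs of the 7 were 0.35, 0.40, 0.31, 0.30, 0.27, 0.21 and 0.21 in that order. With description style as a term they were 0.33, 0.28, 0.20, 0.28, 0.13, 0.22 and 0.18.

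**Figure D1:**
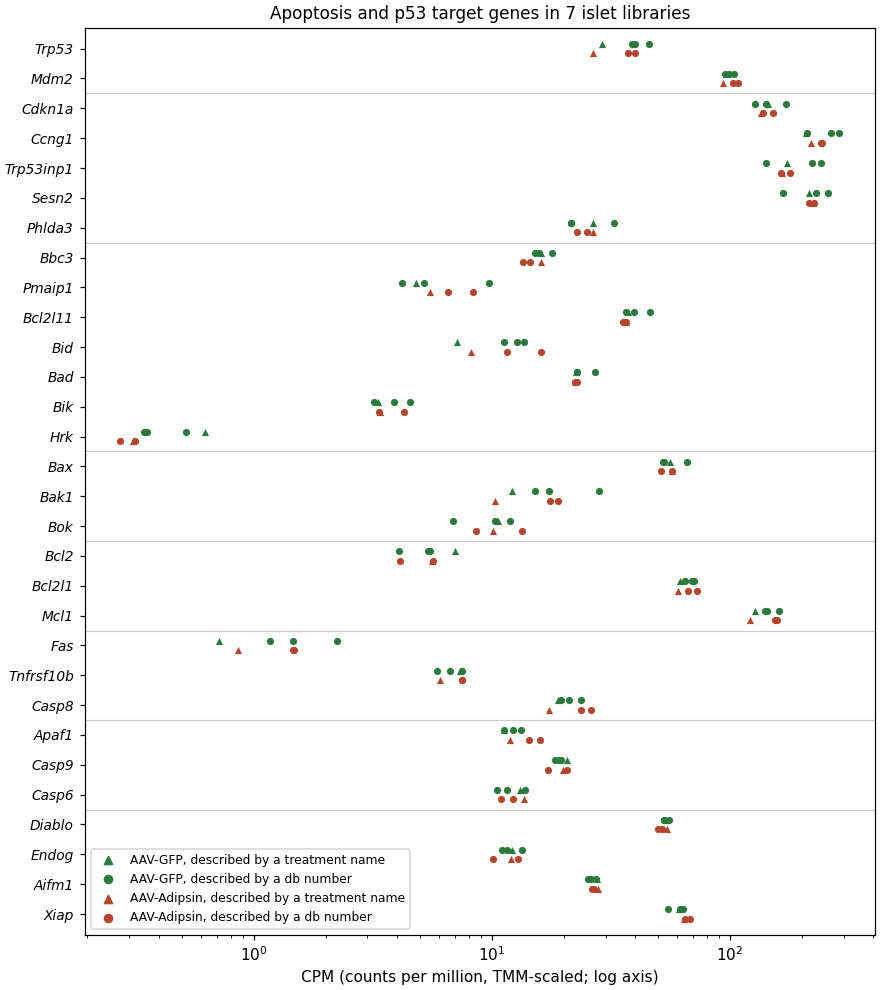
CPM of each member (log axis) in 7 libraries, with 1 point per library; green is AAV-GFP, red is AAV-Adipsin, triangles are the libraries described by a treatment name and circles those described by a db number. Grey lines separate the functional groups. The red and green points overlap for 27 of 30 members. Of all genes, 1.16% were higher and 1.58% lower in AAV-Adipsin without overlap. The 2 triangles lie below all circles for Trp53, Bid, Bak1, Bcl2l1, Mcl1, Fas and Casp8, as for 18.9% of all genes. They lie above all circles for Aifm1, as for 18.7% of all genes.

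Trp53, the gene for p53 itself (ENSMUSG00000059552, chromosome 11 from 69580359 to 69591873, plus strand, GRCm38), stood at 28.9, 38.8, 40.0 and 45.7 CPM in AAV-GFP and 26.7, 40.0 and 37.3 CPM in AAV-Adipsin. The 2 low values are replicate 1 of each group, and the groups overlap. The fitted log2 change of -0.15 (SE 0.18, edgeR adjusted p = 1.00) had a 95% interval from -0.55 to 0.26. Mdm2, both a target and the chief inhibitor of p53, varied little, from 93.7 to 108 CPM over the 7 libraries, with group means of 98.9 ± 3.97 and 102 ± 7.49 CPM.

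The 5 targets of p53 grouped here apart from the core machinery of apoptosis overlapped between the groups. Cdkn1a, the cyclin-dependent kinase inhibitor p21, stood at 144, 142, 172 and 127 CPM in AAV-GFP and 135, 151 and 138 CPM in AAV-Adipsin. These values interleave, and the log2 fold change was -0.05 with an interval from -0.30 to 0.20. Ccng1, cyclin G1, had 209, 288, 267 and 211 CPM in AAV-GFP and 219, 242 and 243 CPM in AAV-Adipsin. The AAV-GFP libraries spanned the whole range of the AAV-Adipsin libraries, as they also did for Trp53inp1, a stress protein of autophagy, for Sesn2, a leucine sensor that restrains mTORC1, and for Phlda3, a p53-induced inhibitor of Akt. Trp53inp1 had the lowest fold change of this group, at -0.20 (SE 0.17), with group means of 194 ± 44.8 and 169 ± 8.01 CPM. Without AAV-GFP replicate 2 it was -0.07, without AAV-GFP replicate 3 it was -0.13, and without AAV-GFP replicate 4, the lowest library, -0.32. Sesn2 stood at 217 ± 37.8 and 221 ± 5.98 CPM, and Phlda3 at 25.5 ± 5.34 and 24.7 ± 1.98 CPM.

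Scaled by the length of annotated exons, 4 of these targets, Mcl1 and Bax led the members. In AAV-GFP, Ccng1 had 69.4 ± 11.3 CPM per kb, Sesn2 62.5 ± 10.9, Mcl1 41.8 ± 3.94, Cdkn1a 41.2 ± 5.23, Bax 36.1 ± 4.13 and Trp53inp1 30.01 ± 6.91. Mcl1 and Cdkn1a differ by less than their spread, as do Ccng1 and Sesn2. Trp53 itself had 9.48 ± 1.72 CPM per kb, below all 5 of its targets grouped apart from the core machinery of apoptosis. At the low end were Hrk at 0.0812 ± 0.0236 CPM per kb, Bcl2 at 0.6001 ± 0.133, Fas at 0.676 ± 0.312 and Tnfrsf10b at 1.25 ± 0.134.

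Among the 7 BH3-only genes, Bcl2l11, which encodes Bim, was lower in all AAV-Adipsin libraries but did not pass the test. It stood at 37.2, 46.2, 36.6 and 39.7 CPM in AAV-GFP and 36.5, 36.4 and 35.6 CPM in AAV-Adipsin. The groups do not overlap, but the gap between 36.6 and 36.5 CPM is far smaller than the spread within AAV-GFP. The log2 fold change was -0.14 (SE 0.10, edgeR adjusted p = 1.00). Hrk, a BH3-only gene best known in neurons, also did not overlap, with 28, 11, 20 and 10 counts (0.623, 0.357, 0.520 and 0.345 CPM) in AAV-GFP and 12, 10 and 11 counts (0.311, 0.317 and 0.275 CPM) in AAV-Adipsin. Its log2 fold change of -0.63 (SE 0.35) was the largest of any member, and its unadjusted p of 0.106 by edgeR was the smallest. At such counts the interval runs from -1.43 to 0.16.

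The other BH3-only genes overlapped between the groups. Bbc3 (Puma) and Pmaip1 (Noxa), both classical p53 targets, had log2 fold changes of -0.14 (SE 0.11) and 0.19 (SE 0.30). Bbc3 had group means of 16.2 ± 1.18 and 14.7 ± 1.33 CPM. Pmaip1 stood at 4.78, 4.19, 5.17 and 9.73 CPM in AAV-GFP and 5.50, 8.34 and 6.56 CPM in AAV-Adipsin, with the highest value in AAV-GFP replicate 4 and the 3 lowest in the other AAV-GFP libraries. Leaving out 1 library moved its fold change to between 0.02 (without AAV-Adipsin replicate 2) and 0.53 (without AAV-GFP replicate 4). Bad, which is controlled by phosphorylation downstream of survival signals, was at 23.8 ± 2.14 and 22.5 ± 0.336 CPM. Bik was at 3.72 ± 0.610 and 3.67 ± 0.531 CPM. Bid, which Casp8 cleaves to link death receptors to mitochondria, had a fitted log2 change of 0.09 (SE 0.27), and its levels are given with those of Trp53 by description style.

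Bax, the effector that moves to mitochondria to form pores, stood at 55.9, 52.8, 52.3 and 66.3 CPM in AAV-GFP and 56.8, 56.8 and 51.2 CPM in AAV-Adipsin. Apart from the highest AAV-GFP value, the libraries lie close together, and the fitted log2 change of -0.05 (SE 0.10) had an interval from -0.28 to 0.18. Bak1, the effector that resides in mitochondria, was more variable, at 12.2, 15.1, 17.3 and 28.2 CPM in AAV-GFP and 10.3, 18.9 and 17.5 CPM in AAV-Adipsin. Bok, a less studied relative of both, ran from 6.85 to 13.4 CPM at a fitted log2 change of 0.11 (SE 0.21).

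Among the 3 pro-survival members, transcripts came mainly from Mcl1 and Bcl2l1. Other pro-survival relatives, such as Bcl2l2, are not members and are not in the sums below. Mcl1, whose protein turns over fast, stood at 127, 140.3, 143 and 160.1 CPM in AAV-GFP and 121, 157 and 154 CPM in AAV-Adipsin, with a log2 fold change of 0.01 (SE 0.12). Bcl2l1, which encodes Bcl-xL, had group means of 66.7 ± 4.13 and 66.6 ± 5.90 CPM, and the interval of its log2 change ran from -0.21 to 0.20. Bcl2 ran from 4.06 to 7.03 CPM, with a log2 fold change of -0.10 (SE 0.21). Per kb of exon, Mcl1 made up 71.9% to 74.8% of the 3 pro-survival transcripts in a library, Bcl2l1 24.2% to 26.9% and Bcl2 0.723% to 1.49%. The sum of the pore-forming genes over that of the pro-survival genes was 0.899, 0.781, 0.798 and 0.958 in AAV-GFP and 0.932, 0.823 and 0.737 in AAV-Adipsin. The groups interleave in this ratio, which is given as a description only.

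**Figure D2:**
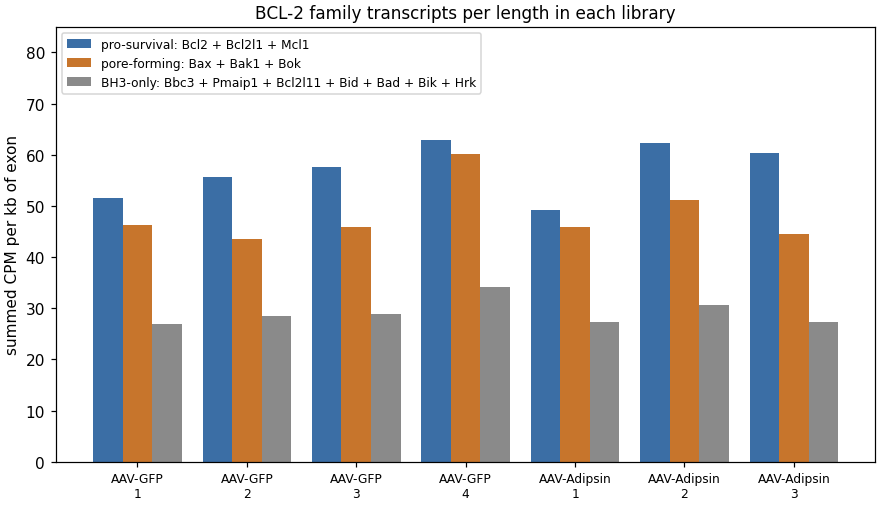
Summed CPM per kb of exon (vertical axis, from 0) of the pro-survival, pore-forming and BH3-only members in each of the 7 libraries. Other genes of the BCL-2 family are not in the sums. Each bar is 1 library, so there is no error bar. The pro-survival sum runs from 49.2 to 62.9, above the pore-forming sum in every library, and the BH3-only sum is the lowest of the 3 in every library.

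Death receptor genes were low per length. Fas, the receptor for Fas ligand, had 32, 36, 56 and 65 counts in AAV-GFP and 33, 46 and 59 in AAV-Adipsin, or 0.712 to 2.24 CPM. The log2 fold change was -0.13, with an interval from -1.03 to 0.77 in the fit without description style. Changes within that range are not excluded by this fit. With style as a term the log2 fold change of Fas was -0.03 (SE 0.28). Tnfrsf10b, the mouse receptor for TRAIL, had group means of 6.84 ± 0.731 and 7.01 ± 0.818 CPM. Casp8, the initiator caspase of both receptors, stood at 19.0, 19.5, 23.7 and 21.05 CPM in AAV-GFP and 17.4, 26.1 and 23.7 CPM in AAV-Adipsin. Its lowest and highest values both belong to AAV-Adipsin, and the log2 fold change was 0.11 (SE 0.15).

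Of the genes downstream of mitochondria, Apaf1, the scaffold of the apoptosome, had the highest fold change of any member, at 0.23 (SE 0.13, edgeR adjusted p = 1.00). It stood at 11.3, 12.3, 11.3 and 13.2 CPM in AAV-GFP and 12.0, 15.95 and 14.3 CPM in AAV-Adipsin, so the lowest AAV-Adipsin library lies within the AAV-GFP range. Its partner Casp9 was at -0.01 (SE 0.10) and the executioner Casp6 at 0.01 (SE 0.13). Xiap, an inhibitor of executioner caspases and of Casp9, was the 1 member higher in all AAV-Adipsin libraries without overlap, where 1.16% of all genes were. It stood at 60.8, 63.4, 61.4 and 55.0 CPM in AAV-GFP and 64.2, 64.9 and 67.8 CPM in AAV-Adipsin. The log2 fold change was only 0.13 (SE 0.08), and the unadjusted p by edgeR was 0.140. Bcl2l11 and Hrk were the 2 members lower without overlap, against 1.58% of all genes.

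Diablo, which blocks Xiap once released, and the mitochondrial factors Aifm1 and Endog, both tied to DNA degradation when released, varied little. Diablo ran from 49.8 to 55.3 CPM and Aifm1 from 25.3 to 27.9 CPM over all 7 libraries. Endog had group means of 12.0 ± 0.999 and 11.7 ± 1.42 CPM. Of the exon bases of Diablo, 1193 of 6166 are shared with a gene model on the same strand and 1326 with B3gnt4 on the opposite strand. Endog shares 379 of 1063 with Spout1 on the opposite strand. In all, 8 members (Bad, Bak1, Bcl2, Bid, Casp9, Cdkn1a, Diablo and Endog) share exon bases with a gene on the opposite strand and 2 (Bax and Diablo) with one on the same strand, including 94 bases of Casp9 shared with the acinar genes Cela2a and Ctrc. With the strand setting of the counting not given, the counts of these 9 members may not be their own alone.

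**Figure D3:**
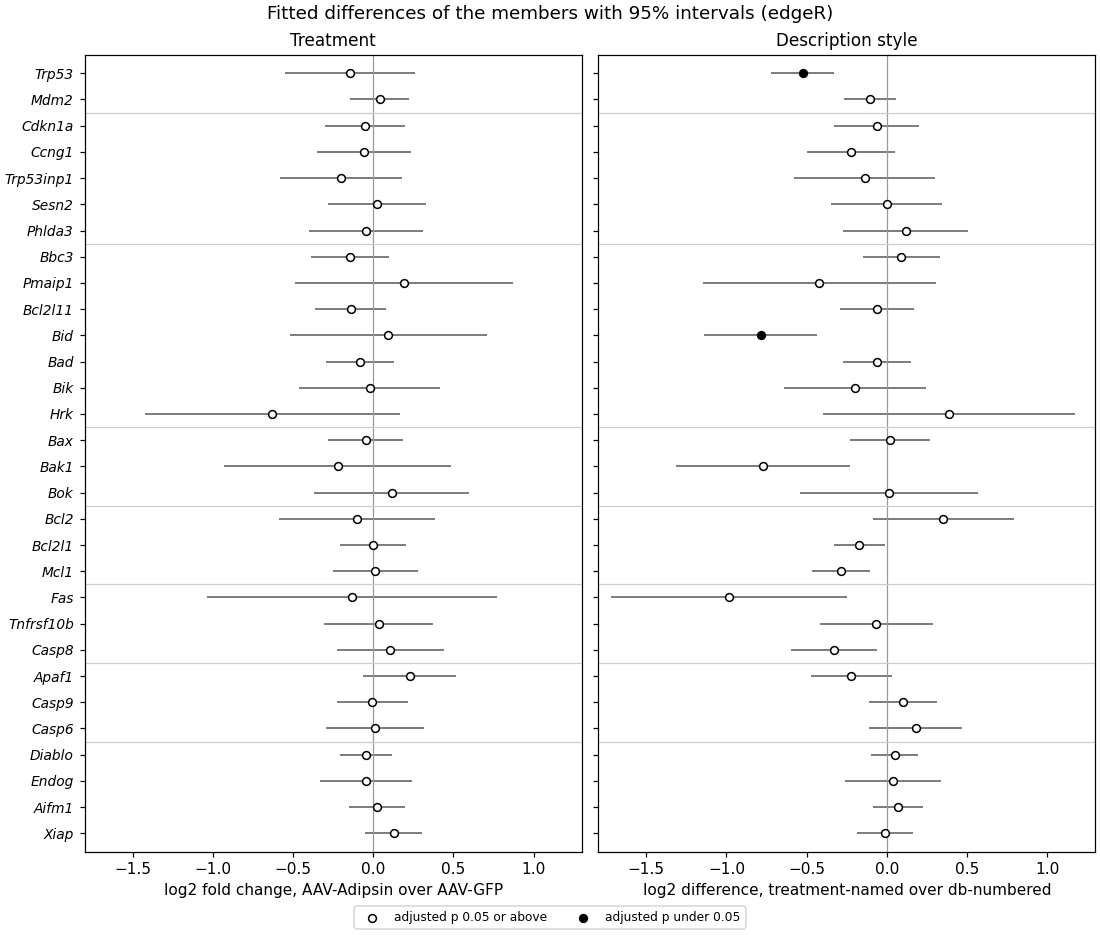
Fitted log2 differences of the 30 members with 95% intervals from edgeR, for AAV-Adipsin over AAV-GFP (left) and for treatment-named over db-numbered libraries (right). Filled points passed an adjusted p of 0.05; none did on the left, and Trp53 and Bid, both lower in the treatment-named libraries, did on the right.

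Trp53 and Bid were lower in the libraries that the labels describe by a treatment name. In a model with both terms, 2 members were lower in the 2 treatment-named libraries than in the 5 db-numbered ones and 0 were higher, against 5.57% of all genes lower and 4.22% higher by edgeR. As a share of the members this is near the background. Trp53 averaged 27.8 CPM in the treatment-named libraries and 40.3 ± 3.19 in the db-numbered ones (SD, n = 5). The log2 difference was -0.53 (SE 0.09, edgeR adjusted p = 0.0134). Bid (ENSMUSG00000004446, chromosome 6 from 120891930 to 120916853, minus strand, GRCm38) stood at 7.16 and 8.14 CPM in the treatment-named libraries, AAV-GFP and AAV-Adipsin in turn. In the db-numbered libraries it stood at 11.3, 12.7 and 13.6 CPM in AAV-GFP and 16.1 and 11.6 CPM in AAV-Adipsin. The log2 difference was -0.79 (SE 0.15, edgeR adjusted p = 0.0235).

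Both calls rest on few libraries. Leaving out either replicate 1 leaves 1 treatment-named library, which is then assumed to vary like the others. Without AAV-GFP replicate 1 the edgeR adjusted p was 0.216 for Trp53 and 0.272 for Bid, without AAV-Adipsin replicate 1 it was 0.198 and 0.237, and without AAV-Adipsin replicate 2 it was 0.0563 and 0.0655. Leaving out AAV-GFP replicate 3 ended the Bid call alone (edgeR adjusted p = 0.0579). Over all fits that left out 1 library, the log2 difference stayed between -0.55 and -0.49 for Trp53 and between -0.88 and -0.69 for Bid. Bid shares 628 of its 3550 exon bases with Bcl2l13 on the opposite strand, for which the style difference was -0.06 (edgeR adjusted p = 0.683). The part of shared bases in the Bid counts was not tested. Within the styles, AAV-Adipsin minus AAV-GFP in log2 CPM was -0.12 in the treatment-named pair and -0.10 in the db-numbered libraries for Trp53, and 0.18 and 0.13 for Bid.

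Over the members, 7 had both treatment-named libraries below all 5 others and 1, Aifm1, had both above, where 18.9% of all genes were below and 18.7% above. Besides Trp53 and Bid these were Bak1, at a log2 difference of -0.77 (SE 0.23), Fas at -0.99 (SE 0.32), Casp8 at -0.33, Mcl1 at -0.29 and Bcl2l1 at -0.17, none of which passed after adjustment. Of the p53 targets among the members given here, only Bid and Fas had a fitted difference below that of Trp53. Cdkn1a differed by -0.06 (interval -0.33 to 0.20), Mdm2 by -0.11 (-0.27 to 0.06), Phlda3 by 0.12 (-0.27 to 0.51), Bax by 0.02 (-0.23 to 0.27), Sesn2 by -0.00 (-0.35 to 0.35) and Bbc3 by 0.09 (-0.15 to 0.33). Ccng1 was at -0.22 (-0.50 to 0.05), Trp53inp1 at -0.14 (-0.58 to 0.30) and Pmaip1 at -0.42 (-1.15 to 0.31). Of other members that p53 is also known to induce, Apaf1 was at -0.22 (-0.47 to 0.03) and Tnfrsf10b at -0.07 (-0.42 to 0.29), with Bid and Fas, as above, at -0.79 and -0.99. Whether these targets differ from Trp53 in this respect was not tested.

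Other genes of these pathways were read from 5 lists of related genes. Between AAV-Adipsin and AAV-GFP none of them passed. For the 24 other p53 targets the median log2 fold change was -0.02, with Ephx1 (-0.21, SE 0.13) and Ercc5 (0.12, SE 0.09) at the smallest p. It was 0.01 for the 7 other BCL-2 family genes tested. The mitophagy receptor Bnip3l, at -0.18 (SE 0.07), and the BH3-only gene Bmf, at 0.13, had the smallest p there, 0.0313 and 0.23 by edgeR before adjustment. The 13 other death receptor pathway genes tested had a median of 0.12, with 11 above 0, led by Tnfrsf1b, a TNF receptor of immune cells, at 0.78 (SE 0.36) and by Ltbr at 0.21. The 16 other caspases, substrates and inhibitors had a median of 0.06, with Naip5 at 0.37 and Casp12 at 0.54 at the smallest p. The 10 stress genes of ATF4 and CHOP, a route to Bbc3, Sesn2 and Tnfrsf10b that does not need p53, had a median of -0.09, with Chac1 at -0.13 and Atf4 at -0.12.

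By description style, 15 of the 70 genes tested over these 5 lists passed by edgeR, 11 lower and 4 higher in the treatment-named libraries. These are 15.7% and 5.71% of them, beside 5.57% and 4.22% of all genes. Birc3, an inhibitor-of-apoptosis protein and a well known NF-kB target, stood at 17.4 and 14.3 CPM in the treatment-named libraries and at 108, 86.6, 109.7, 109 and 105 CPM in the others. Its log2 difference was -2.71 (SE 0.14, adjusted p = 1.9e-04). Tnf, the cytokine, was at 0.267 and 0.156 CPM against 1.59 to 2.76, a log2 difference of -3.35 (SE 0.40). The TRAIL gene Tnfsf10 was at 16.2 and 17.5 CPM against 30.01 to 45.8, a difference of -1.16 (SE 0.12). For the p53 target Zmat3, an RNA-binding protein, the values were 58.6 and 58.7 CPM against 73.9 to 93.4, a difference of -0.51 (SE 0.10). The remaining genes lower in the treatment-named libraries were Casp4, Cycs, Ltbr, Ripk1, Aen, Ephx1 and Bcl2l14, among which Cycs encodes cytochrome c and Aen a nuclease induced by p53. Those higher were Gadd45a (0.40), Mdm4 (0.39), Bcl2l2 (0.24) and Dffb (0.77). The p53 targets of the list therefore passed in both directions, 3 lower and 2 higher, with a median of -0.09 over 24.

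**Figure D4:**
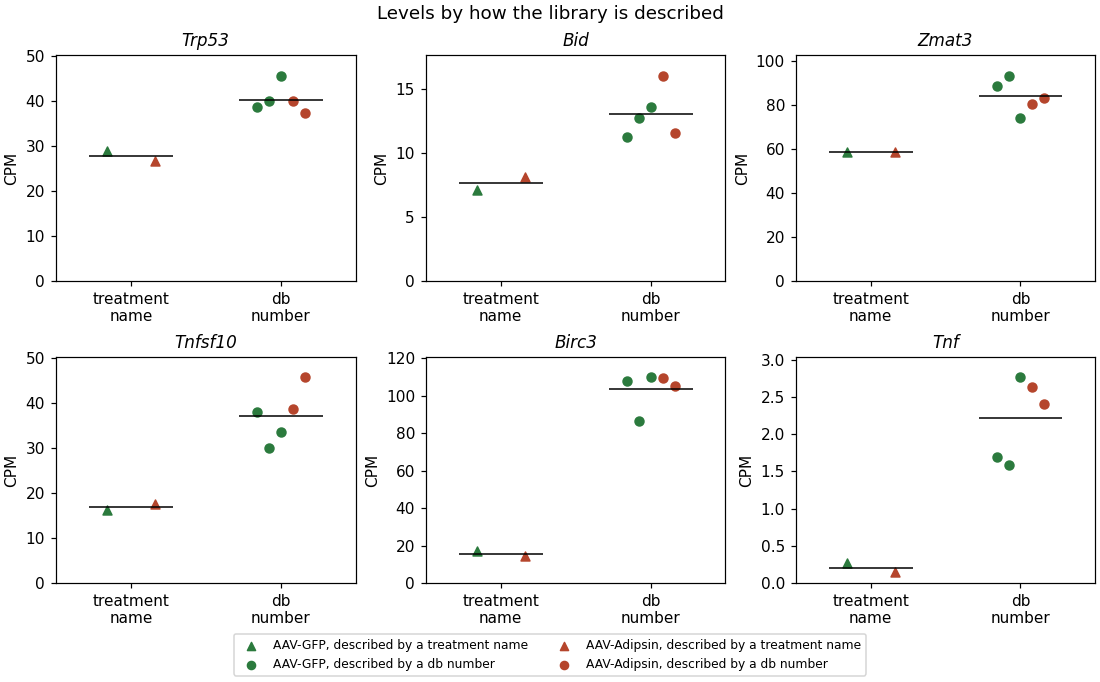
CPM (vertical axes, from 0) of Trp53, Bid, Zmat3, Tnfsf10, Birc3 and Tnf in the 2 libraries described by a treatment name and the 5 described by a db number; points are libraries, colours are treatments and bars are means. In each panel both triangles lie below all circles. All genes shown were picked from those called lower in the treatment-named libraries, so the panels are no further test of this. Genes called higher there are not shown. The red and green circles overlap for Trp53, Bid, Zmat3, Birc3 and Tnf, and for Tnfsf10 both red circles (38.7 and 45.8 CPM) lie above the green ones.

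Markers of other cells moved among the libraries too. Summed over 10 macrophage markers, all detected, AAV-GFP ran from 137 to 201 CPM and AAV-Adipsin from 152 to 323, with the highest value in AAV-Adipsin replicate 2. Over 9 mesenchymal markers the ranges were 92.4 to 351 and 156 to 214 CPM, and over 15 acinar markers 2704 to 17913 and 3372 to 12908 CPM, with Amy2a5 at 0 in all. Over 7 endothelial markers the ranges were 378 to 606 and 461 to 555 CPM, and over 6 duct markers 1268 to 1738 and 1278 to 1830 CPM. The lymphocyte markers Cd3e and Nkg7 were at 0 in all libraries, and the 9 markers of that list summed to at most 6.98 CPM. Of the macrophage genes tested, 10 of 10 had a fitted treatment change above 0, as had 7 of 7 endothelial and 8 of 9 mesenchymal genes. Of the duct genes 2 of 6 had one above 0, and of the lymphocyte genes tested 2 of 2. Of the acinar genes 14 of 14 had one below 0, as had 7 of 8 endocrine genes, with 0 called in any of these lists. Lower in the treatment-named libraries by the style fit were 9 of 10 macrophage, 9 of 9 mesenchymal and 14 of 14 acinar genes. Of the endothelial genes 6 of 7 were lower, and of the duct genes 5 of 6. Of the endocrine genes 5 were higher and 3 lower, and of the lymphocyte genes tested 1 was higher and 1 lower. Of all genes, 49.2% had a style difference above 0. In the treatment-named libraries the macrophage sum was 137 and 152 CPM, against 144 to 323 in the others, and the scavenger receptor gene Msr1 was lower there (-1.22). The endocrine genes Iapp (0.40) and Chga (0.32) were higher there. AAV-GFP replicate 4, which had the highest mesenchymal sum and the highest share of mitochondrially encoded counts (2.67%), was the highest of the 7 libraries for 14 members, where it was the highest for 25.2% of all genes. The part of these cells and libraries in the member values was not tested, and in bulk islets fewer cells of a type and less RNA per cell cannot be told apart.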

How the data were processed

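The values are whole-number read counts per Ensembl gene that the authors deposited as 1 table, 1 column per library, not normalised. The submitters' processing notes name STAR and the mm10 (GRCm38) build, and per the labels' protocols the kit was a stranded mRNA kit. Which program counted the reads, with which strand setting and annotation, is not given in the sources used here. Symbols, coordinates and exon lengths came from GENCODE M21 (release 21), which matched 51633 identifiers, and 279 had no symbol. Counts were filtered with filterByExpr by group, scaled by TMM and fitted by robust quasi-likelihood in edgeR 4.0.16 (R 4.3.3) across all 16504 genes left. The treatment model had no covariate, and the description-style model also held treatment. The p-values were adjusted by Benjamini-Hochberg, threshold 0.05. Log2 CPM within styles used a prior count of 2. DESeq2 1.42.0 and limma-voom (limma 3.58.1) were alternatives, beside RLE scaling, no filter, a replicate block, a style term and leaving out libraries. The fits were also run on simulated data with a fixed dispersion and changes larger than those fitted for the members. That run says nothing of the power to find smaller changes. At the library total, 3 counts correspond to 0.0682 to 0.101 CPM. The members and lists were chosen with earlier results of these data known. All members are named, and of the other lists the genes called or, failing that, the 2 with the smallest p. The p53 element search was chosen after the data were seen. Promoter sequences are from RefSeq (GRCm38.p6), at 300 bases each. Of the genes in the lists, 1 is not reported here and was left out of its list's counts.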

Additional observations from a re-analysis of the deposited data

Results flagged for a closer look

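In AAV-GFP, Bad stood at 27.02 CPM in replicate 4, set apart from the other 3 libraries of its group by more than Dixon's 95% limit for 4 values. Chance flags about 1 in 20 such groups, and 30 members were screened. For 3 members the treatment difference had opposite signs in the 2 styles of description, with no overlap within the db-numbered libraries. The differences in log2 CPM, AAV-Adipsin minus AAV-GFP, were -0.22 in the db-numbered libraries and 0.0062 in the treatment-named pair for Bbc3, 0.22 and -0.13 for Casp8 (where the nearest db-numbered libraries of the groups were both at 23.7 CPM), and -0.079 and 0.019 for Diablo. The difference between the styles was not tested for any of the 3. With 2 against 3 db-numbered libraries and 1 treatment-named pair, such a pattern arises easily by chance. Its share over all genes was not counted, so the 3 are not a result about the members.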

How the results depend on the processing

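No member was called between AAV-Adipsin and AAV-GFP under any of the 14 alternatives, and the median of the members stayed between -0.063 and 0.037. Counts of all genes called were 1 in the reported fit and 0 without a filter on low counts, with limma-voom and without both treatment-named libraries, 4 with DESeq2, and 0 to 1 without single libraries. The sign of the fitted change held in every alternative for 10 members (Trp53inp1, Mdm2, Bbc3, Pmaip1, Bcl2l11, Bad, Hrk, Apaf1, Diablo and Xiap) and turned in some for the other 20, never beyond 0.19. Without single libraries the 10 ran from -0.32 to -0.074, 0.0035 to 0.095, -0.22 to -0.073, 0.025 to 0.53, -0.18 to -0.054, -0.10 to -0.015, -0.74 to -0.43, 0.14 to 0.33, -0.081 to -0.0039 and 0.087 to 0.16 in that order. An unadjusted p under 0.05 was reached by Trp53inp1, Pmaip1 and Apaf1 with the replicate block (0.013, 0.024 and 0.027), by Trp53inp1 and Pmaip1 without AAV-GFP replicate 4 (0.030 and 0.026), and by Apaf1 with the style term (0.043), without both treatment-named libraries (0.038) and without AAV-Adipsin replicate 1 (0.029). Without single libraries the 20 ran from -0.25 to 0.011 (Trp53), -0.11 to 0.036 (Cdkn1a), -0.12 to 0.045 (Ccng1), -0.084 to 0.11 (Sesn2), -0.12 to 0.097 (Phlda3), -0.17 to 0.31 (Bid), -0.14 to 0.084 (Bik), -0.085 to 0.035 (Bax), -0.38 to 0.068 (Bak1), -0.073 to 0.26 (Bok), -0.21 to 0.053 (Bcl2), -0.059 to 0.062 (Bcl2l1), -0.048 to 0.12 (Mcl1), -0.35 to 0.19 (Fas), -0.020 to 0.13 (Tnfrsf10b), -0.010 to 0.26 (Casp8), -0.055 to 0.083 (Casp9), -0.075 to 0.10 (Casp6), -0.11 to 0.061 (Endog) and -0.0017 to 0.055 (Aifm1). RLE scaling gave 0.0057 for Bcl2l1 and 0.00051 for Casp9, and DESeq2 0.0056 for Bcl2l1. With description style as a term Bcl2l1 was at 0.011 and Casp6 at -0.0077, and without both treatment-named libraries Bcl2l1 was at 0.040, Casp9 at 0.012 and Casp6 at -0.027. The replicate numbers of the labels pair only replicate 1 (r = 0.661 between deviations from the group means across genes, against -0.011 and 0.0071 for replicates 2 and 3). By this measure the libraries numbered 2, and those numbered 3, share only a number. With the replicate block, 1 gene and 0 members were called, the median was 0.033, and the signs turned for Sesn2 (-0.082), Phlda3 (0.0996), Bik (0.077), Bax (0.032), Bak1 (0.034), Bcl2l1 (0.026), Fas (0.19) and Endog (0.0038). Between the styles of description, 1616 genes and 2 members were called. These counts were 2528 and 4 with DESeq2, which added Bak1 and Mcl1, and ran from 39 to 4348 and from 0 to 7 without single libraries, highest without AAV-GFP replicate 4 and 0 members without replicate 1 of either group or AAV-Adipsin replicate 2. The cause of these changes was not tested. Counts per library were lowest for Hrk and Fas.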
